A study of Homo sapiens with 4 samples.

Results

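F-box proteins are the substrate receptors of SCF ubiquitin ligases, and their transcripts were followed in PC3 prostate cancer cells that were given a NEDDylation inhibitor, depleted of p14ARF, or both. The members were chosen by name: every row of the expression table whose symbol is FBXO, FBXW or FBXL with a number and at most 1 further letter, together with SKP2, CCNF and BTRC, which are F-box genes under older symbols. This gave 66 of the 43622 genes in the table. Of these, 60 had a mean of at least 0.1 TPM (a level scaled to the same library total and corrected for gene length) over the 12 libraries and were tested. The other 6 (FBXO47, FBXL7, FBXW10, FBXO17, FBXW12 and FBXO39) lay under that level and are only named here, FBXO39 being listed at 0 in every library. FBXO40 passed with its MLN libraries alone above 0.1 TPM, so it had to differ and supports nothing. It stays in the counts of members called.

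An SCF ligase is built on the cullin CUL1, which holds the RING protein RBX1 at one end and the adaptor SKP1 at the other. SKP1 binds the F-box of an exchangeable receptor, and the receptor picks the protein to be ubiquitinated, often through a phosphorylated motif. The ligase works when NEDD8 is joined to the cullin, and MLN4924 (pevonedistat) stops that step by blocking the NEDD8-activating enzyme. The receptors are sorted by the part that binds the substrate: WD40 repeats in FBXW proteins, leucine-rich repeats in FBXL proteins, and other domains in FBXO proteins.

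PC3 is an established line from a human prostate cancer. The 4 conditions were PC3 with the solvent DMSO (Ctrl), PC3 with 1 µM MLN4924 (MLN), PC3-shp14ARF with DMSO (shARF) and PC3-shp14ARF with 1 µM MLN4924 (Both), all for 3 days and with 3 replicate libraries each. PC3-shp14ARF carries an shRNA against p14ARF that was brought in stably by a retrovirus and selected with hygromycin. The deposited records do not give these facts alike: the design text has 1 mM and a knockout where the treatment protocol and the methods have 1 µM and an shRNA, which are used here, and 1 sample is listed per condition while the table has 3 columns for each. No control shRNA is named for Ctrl and MLN, so the hairpin, the vector and the selection cannot be told apart in a comparison between the lines, and it is not stated whether replicates were separate cultures, so p-values measure the spread between these libraries, which may be technical.

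CDKN2A, the targeted gene, read 190.1, 183 and 177 TPM in Ctrl and 100.4, 133 and 119 in MLN, and 58.2, 58.7 and 60.9 in shARF and 47.2, 41.2 and 54.01 in Both. The libraries of the hairpin line were thus all below those of PC3, though this row sums p14ARF with p16INK4a, which the same gene encodes. Every library sums to the same total in TPM, so its depth is unknown, and replicates correlated with Pearson's r between 0.975 and 0.980 across genes on the log2 scale, genes not being independent replicates. Of the markers fixed for the cell type, the 5 epithelial genes (KRT8, KRT18, KRT19, EPCAM and CDH1) were present in every library, while KLK3 and KLK2, which mark luminal prostate cells, were at or near 0. The summed epithelial level was 907 to 1004 TPM in Ctrl and 439 to 504 in MLN, and 1138 to 1280 in shARF and 433 to 450 in Both, and the part of this shift in the results given here was not tested. Of 9 markers of blood, fibroblast, endothelial, red and liver cells, the summed level was 20.4 to 21.6 TPM in Ctrl and 23.5 to 25.8 in MLN, and 11.6 to 13.4 in shARF and 14.3 to 14.9 in Both. Within that sum single genes differed in opposite directions, with mean levels of 11.7 TPM in Ctrl and 0.579 in MLN for the endothelial PECAM1, 7.27 and 18.2 for the fibroblast COL1A1, and 0.525 and 3.38 for COL3A1. The blood cell genes CD3E, PTPRC and CD14 reached at most 0.056, 0.32 and 0.80 TPM in any library. The part of these genes in the results was not tested either.

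Promoter letters are shown for the cell cycle members SKP2, CCNF and FBXO5, whose transcripts were all higher in shARF than in Ctrl. The stretches lie before the RefSeq start on GRCh38.p14, trimmed so as to leave out exons: chr5:36151888-36151988 on the plus strand for SKP2, chr16:2429197-2429393 on the plus strand for CCNF and chr6:152983580-152983829 on the minus strand for FBXO5. Capitals mark the letters CCAAT (the CCAAT box) and TTTGAA (the cell cycle homology region, CHR, found in promoters of many G2/M genes), searched on both strands.
SKP2: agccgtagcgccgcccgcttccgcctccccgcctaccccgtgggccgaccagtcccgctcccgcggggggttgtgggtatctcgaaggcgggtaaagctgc
CCNF: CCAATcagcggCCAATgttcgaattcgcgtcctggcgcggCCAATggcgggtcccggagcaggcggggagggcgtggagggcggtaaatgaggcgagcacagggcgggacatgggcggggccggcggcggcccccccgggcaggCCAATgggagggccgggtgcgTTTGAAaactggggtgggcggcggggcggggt
FBXO5: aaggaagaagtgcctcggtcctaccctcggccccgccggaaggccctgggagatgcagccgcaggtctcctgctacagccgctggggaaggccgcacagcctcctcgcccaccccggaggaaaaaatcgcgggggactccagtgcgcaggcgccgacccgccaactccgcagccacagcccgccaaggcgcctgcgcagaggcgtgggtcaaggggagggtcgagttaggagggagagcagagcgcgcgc
CCNF held CCAAT 250, 239, 210 and 106 bases before its start and TTTGAA 85 bases before it, while neither set of letters was in the SKP2 and FBXO5 stretches. In the 250 bases before the start, TTTGAA was found for 1 of the 51 members with a RefSeq promoter (CCNF) and in 13.3% of all 35116 promoters, and CCAAT for 14 of 51 members (27.5%) and in 32.0% of all. E2F-like letters (TTTCCCGC, TTTGGCGC, TTTCGCGC or TTTGCCGC, on either strand) were found for 2 of 51 members, FBXO44 and FBXO9, and in 2.79% of all promoters. The motifs share no letters at these places, and a match is a description of sequence, not of binding.

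PC3 cells held transcripts of most F-box genes. In Ctrl, 39 of the 66 members had a mean of at least 10 TPM, 15 had 1 to 10 TPM and 12 had less than 1 TPM, with a median of 11.4 TPM. The highest means over the 12 libraries were those of FBXL6 (84.1 TPM), FBXW5 (64.8), FBXO27 (56.6), FBXO45 (56.0), FBXW11 (51.8), FBXO28 (51.1) and FBXL5 (50.8). FBXW7, the tumour suppressor that takes cyclin E and MYC to the ligase, was among the low members, with 4.57, 3.999 and 5.29 TPM in Ctrl. The sum over all 66 members was 1151 ± 56.5 TPM in Ctrl and 1246 ± 45.5 in MLN, and 1188 ± 41.8 in shARF and 1221 ± 20.3 in Both (mean ± SD, n = 3), and its libraries overlapped between conditions.

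**Figure D1:**
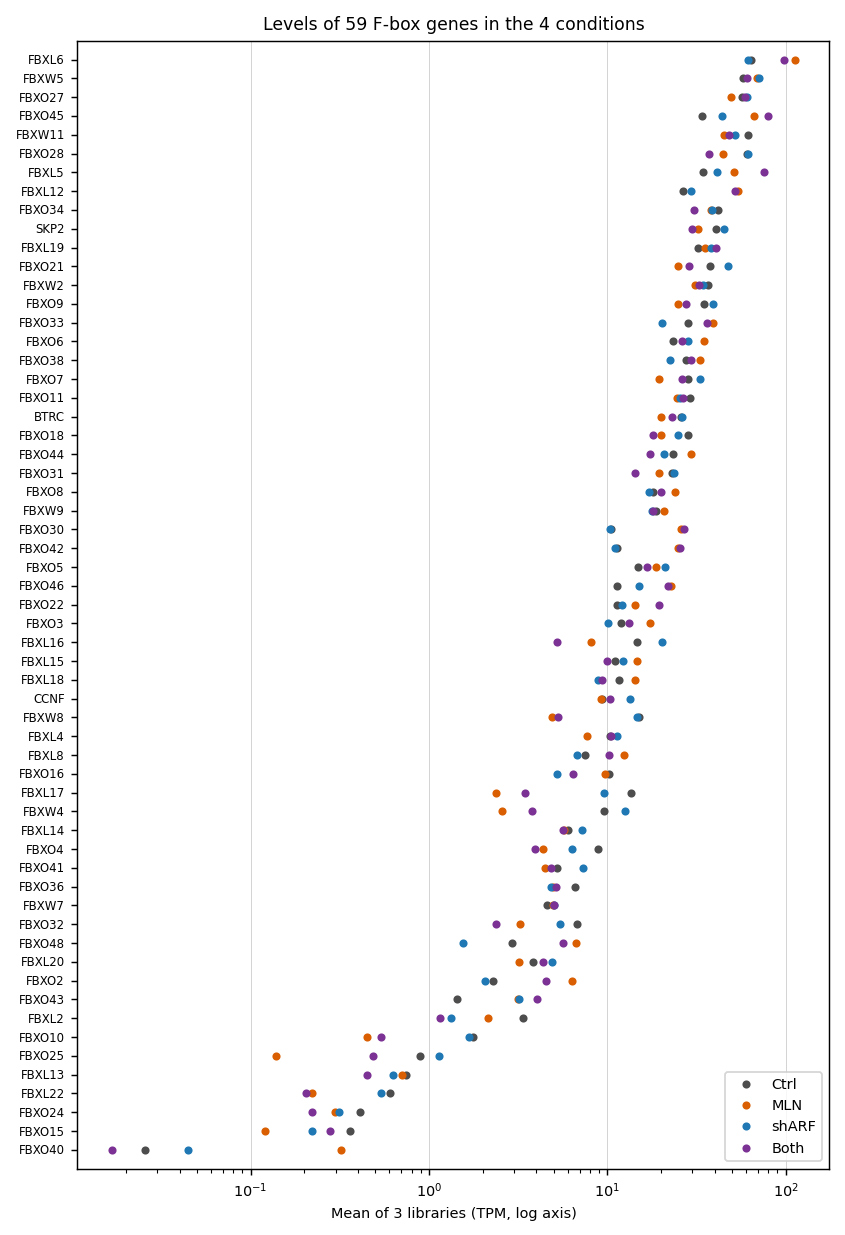
Mean TPM of the 3 libraries of each condition (log axis) for 59 of the 60 tested F-box genes, ordered by their mean over all 12 libraries. FBXL6 leads at 84.1 TPM; the conditions lie close together for most genes and far apart for genes such as FBXL17, FBXW4 and FBXO30.

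What MLN4924 did to the transcripts of its own target machinery was asked first in PC3, with differences on the log2(TPM + 0.1) scale, which understates the change of low genes. Values of the form a ± b given for a comparison are such log2 differences with their SE. Of the 66 members, 23 rose and 23 fell in MLN against Ctrl at an adjusted p below 0.05 (limma, Benjamini-Hochberg over 19932 genes), 14 were not called and 6 were not tested. Of all tested genes, 32.2% rose and 29.4% fell, beside 38.3% of the tested members in each direction. A change of at least 1 on the log2 scale was called upward for 8 members and downward for 9, against 15.6% and 12.4% of all genes. The median difference of the tested members was −0.07, beside 0.05 for all genes. In the hairpin line, Both against shARF, 16 members rose and 23 fell, against 28.3% and 32.8% of all genes, and 4 rose and 8 fell by at least 1, against 13.0% and 13.4%. The median was −0.14 for the members and −0.04 for all genes. In bulk RNA, fewer cells of a type and less RNA per cell cannot be told apart.

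These 2 comparisons share no library. Among the tested members, 15 rose in both lines and 15 fell in both. How many of all genes did so was not counted, so whether this exceeds the whole table is unknown. FBXO5, FBXL15 and FBXO44 rose in PC3 and fell in the hairpin line, and no member did the reverse. For FBXL15 the rise was lost without Ctrl replicate 2 or 3 or MLN replicate 2 or 5 (adjusted p up to 0.258 over its alternatives) and the fall without shARF replicate 1 or 5 or Both replicate 2 or 3 (up to 0.143). A further 5 rose and 8 fell in PC3 alone by these calls, 1 rose and 5 fell in the hairpin line alone, and 8 were called in neither. Whether a member's responses differed between the lines was tested separately and is given further on.

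**Figure D2:**
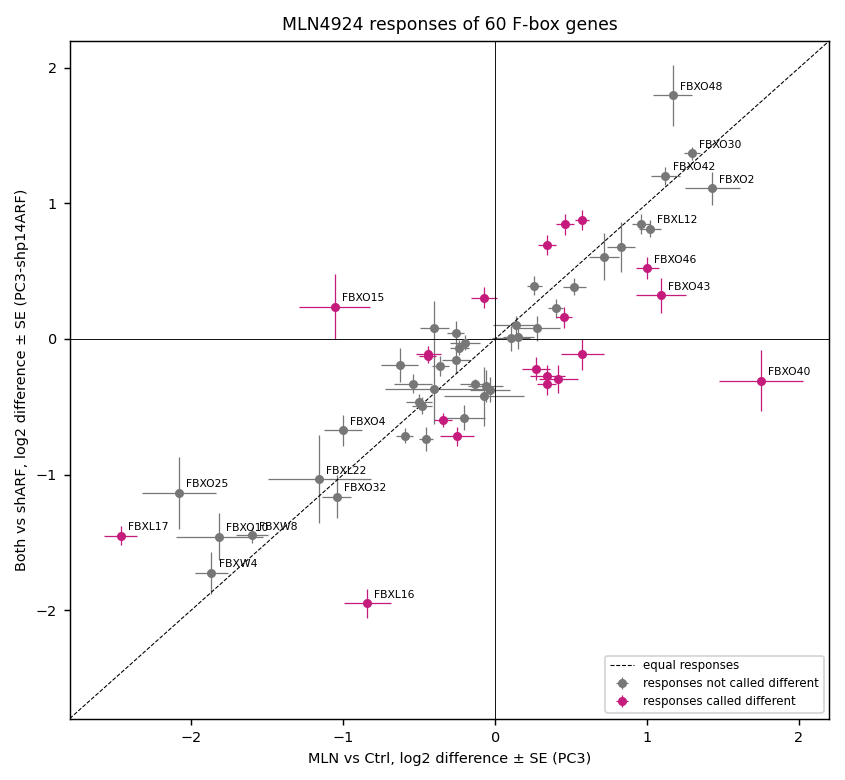
Log2 difference ± SE of each of the 60 tested F-box genes in MLN against Ctrl (x axis, PC3) and in Both against shARF (y axis, PC3-shp14ARF), 3 libraries per condition; the dashed line marks equal responses and coloured points are genes whose 2 responses differed by the interaction test. FBXO30, FBXO42 and FBXL12 sit high on both axes, FBXW4, FBXW8 and FBXL17 low on both, and FBXL16 lies below the dashed line.

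The F-box genes that rose most after MLN4924 in PC3 were FBXO2, FBXO30, FBXO48, FBXO42, FBXO43, FBXL12 and FBXO46 among members with a mean of at least 1 TPM. FBXO30 read 10.5, 10.6 and 10.3 TPM in Ctrl and 26.96, 24.9 and 25.7 in MLN, and 10.7, 10.1 and 10.2 in shARF and 26.3, 27.5 and 26.6 in Both. All drug-treated libraries thus lay well above all untreated ones, by 1.30 ± 0.053 on the log2 scale in PC3 (SE; limma adjusted p = 1.22e-05) and 1.37 ± 0.046 in the hairpin line (limma adjusted p = 6.01e-06). FBXO42 went from 12.1, 10.2 and 11.8 to 22.4, 25.4 and 26.7 TPM in PC3 and from 11.5, 10.8 and 10.97 to 27.5, 25.8 and 23.9 TPM in the hairpin line, again with no overlap (1.12 ± 0.10 and 1.20 ± 0.065). FBXL12, a leucine-rich repeat receptor, went from 28.2, 25.5 and 26.5 to 50.5, 53.8 and 58.9 TPM and from 27.7, 28.9 and 31.9 to 52.5, 50.1 and 53.1 TPM (1.02 ± 0.072 and 0.81 ± 0.062). FBXO45, an atypical receptor that works with the RING protein MYCBP2, rose by slightly less in PC3 (0.96 ± 0.059), with 33.5, 34.2 and 34.4 TPM in Ctrl and 61.5, 66.996 and 70.3 in MLN, and 43.9, 43.7 and 44.8 in shARF and 80.1, 87.1 and 71.999 in Both.

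FBXO48 was among the lower members and had the largest rise in the hairpin line. It read 2.51, 2.96 and 3.32 TPM in Ctrl and 6.98, 6.29 and 6.76 in MLN, and 1.86, 1.67 and 1.15 in shARF and 5.42, 6.81 and 4.69 in Both. Its shARF libraries were the lowest of all, and the rise was 1.17 ± 0.13 in PC3 and 1.80 ± 0.22 in the hairpin line on the log2 scale (limma adjusted p = 0.000413 and 0.000804). FBXO46 rose by 1.00 ± 0.077 in PC3, from 12.02, 10.8 and 11.3 to 20.997, 23.4 and 24.2 TPM. In the hairpin line it rose by 0.52 ± 0.08, from 15.8, 14.4 and 15.3 to 21.5, 20.02 and 24.05 TPM. Its shARF libraries lay above its Ctrl libraries.

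Among members with a mean of at least 1 TPM, those that fell most in PC3 were FBXL17, FBXW4, FBXO10, FBXW8, FBXO32, FBXO4 and FBXL16, and in the hairpin line FBXL16 fell most. Below that level, FBXO25 (−2.08 ± 0.24), FBXL22 (−1.16 ± 0.34) and FBXO15 (−1.06 ± 0.23) also fell in PC3. The call of FBXL22 was lost without Ctrl replicate 1 or 2 or MLN replicate 1 or 2 (limma adjusted p up to 0.0833 over its alternatives). FBXL17, the receptor of a quality control pathway for misassembled BTB-domain dimers, read 14.8, 12.998 and 12.8 TPM in Ctrl and 2.14, 2.41 and 2.56 in MLN. In the hairpin line it read 9.42, 9.52 and 10.001 TPM in shARF and 3.59, 3.31 and 3.49 in Both. The log2 difference was −2.46 ± 0.11 in PC3 (limma adjusted p = 1.44e-05) and −1.45 ± 0.071 in the hairpin line (limma adjusted p = 2.03e-05), and the untreated and treated libraries did not overlap in either line. FBXW4 fell from 10.5, 9.06 and 9.44 to 2.43, 2.45 and 2.84 TPM (−1.87 ± 0.11), and from 11.9, 12.5 and 13.5 to 4.25, 2.95 and 4.20 TPM in the hairpin line (−1.72 ± 0.16). FBXW8, the receptor that joins CUL7 in place of CUL1, fell from 17.1, 14.04 and 14.02 to 4.94, 4.54 and 5.16 TPM (−1.60 ± 0.11), and from 14.6, 14.2 and 15.1 to 5.27, 5.49 and 5.14 TPM (−1.45 ± 0.058). Both lines thus reached nearly the same treated level of FBXW8. CUL7 itself was not called after the drug in either line (−0.11 ± 0.10 and 0.011 ± 0.067).

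FBXO32 (atrogin-1, best known from muscle wasting) fell from 7.06, 6.70 and 6.55 to 3.07, 3.52 and 3.12 TPM in PC3 and from 5.51, 4.62 and 6.10 to 2.53, 2.61 and 1.96 TPM in the hairpin line. FBXO10, whose product takes BCL2 as a substrate, was low throughout, at 2.08, 1.47 and 1.77 TPM in Ctrl and 0.664, 0.326 and 0.352 in MLN, and its log2 difference was −1.82 ± 0.29 in PC3 and −1.46 ± 0.17 in the hairpin line. Its paralog FBXO11, which targets BCL6, read 29.6, 28.3 and 29.9 TPM in Ctrl and 23.9, 23.5 and 25.9 in MLN and fell by far less (−0.26 ± 0.056). It was not called in the hairpin line (0.046 ± 0.09). FBXO25, the paralog of FBXO32, also lost much of a low level, from 0.861, 0.929 and 0.890 to 0.206, 0.0920 and 0.119 TPM in PC3.

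**Figure D3:**
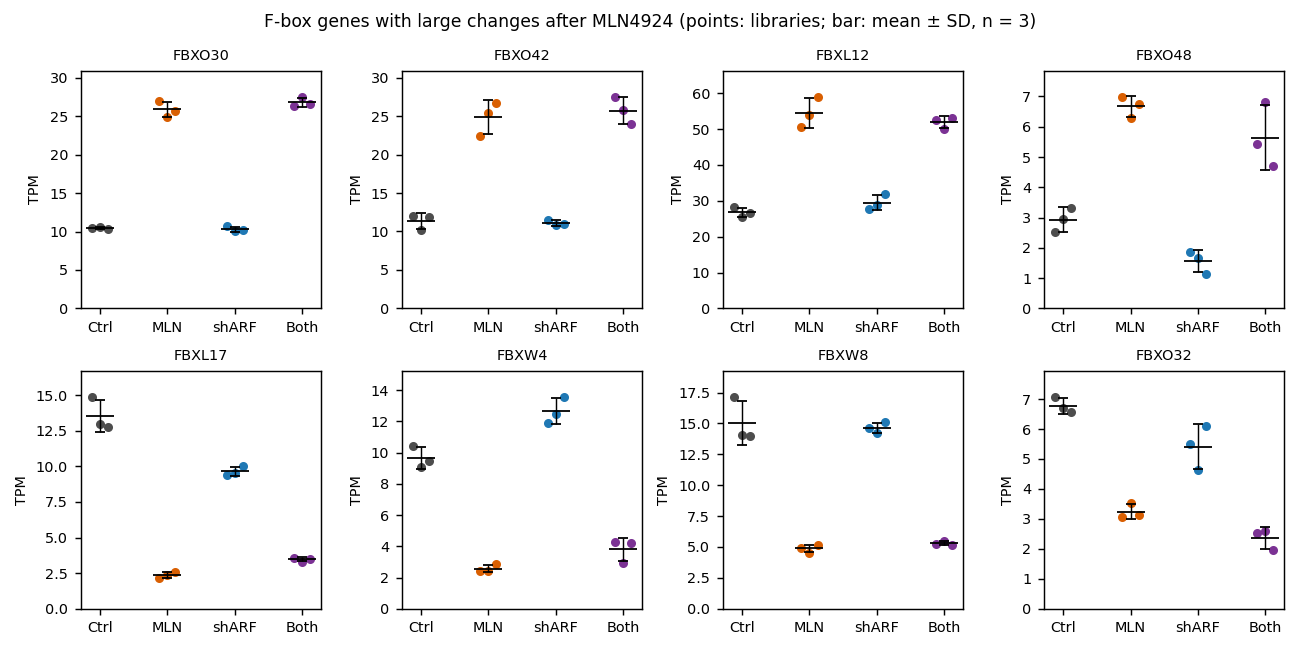
TPM in each of the 12 libraries for 4 members that rose after MLN4924 (FBXO30, FBXO42, FBXL12, FBXO48) and 4 that fell (FBXL17, FBXW4, FBXW8, FBXO32); points are libraries, bars the mean ± SD of 3, and each axis starts at 0. Treated and untreated libraries of the same line do not overlap in any panel.

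The list made for receptors of cell cycle regulators held 12 members, though FBXO5 and FBXO43 on it are inhibitors of another ubiquitin ligase. After MLN4924, 2 of the 12 (FBXO5 and FBXO43) rose and 6 fell in PC3, and none rose and 7 fell in the hairpin line. The list medians were −0.25 and −0.34 beside 0.05 and −0.04 for all genes. The all-gene shares were 32.2% rising and 29.4% falling in PC3, and 28.3% and 32.8% in the hairpin line. In shARF against Ctrl, 4 of the 12 rose and 3 fell (median 0.08, beside 0), against 21.0% and 20.4% of all genes. The names on this list do not share 1 cell cycle phase, so the members are given singly.

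SKP2, which with its partner CKS1B recognises the CDK inhibitor p27 (CDKN1B), read 39.3, 42.7 and 40.7 TPM in Ctrl and 30.8, 31.5 and 34.3 in MLN, and 47.2, 44.3 and 44.7 in shARF and 30.3, 31.3 and 28.4 in Both. The treated libraries were below the untreated ones in both lines, with log2 differences of −0.34 ± 0.06 in PC3 and −0.60 ± 0.051 in the hairpin line (limma adjusted p = 0.00321 and 0.000162). CKS1B went the other way, from 173, 192 and 184 to 425, 408 and 444 TPM in PC3 (1.22 ± 0.06) and from 274, 295 and 276 to 511, 457 and 447 TPM in the hairpin line (0.74 ± 0.066). The CDKN1B transcript rose in PC3 (0.66 ± 0.051) and was not called in the hairpin line (−0.0088 ± 0.038). SKP2 was also higher in shARF than in Ctrl, by 0.15 ± 0.043 (limma adjusted p = 0.0418). That call was lost under 10 of 14 alternatives, among them without Ctrl replicate 1 or 3 or any 1 shARF library, with adjusted p up to 0.164.

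CCNF (cyclin F, which removes regulators of centriole and nucleotide metabolism in G2) was highest in shARF. It read 9.41, 8.82 and 9.75 TPM in Ctrl and 8.16, 8.34 and 11.04 in MLN, and 13.4, 12.8 and 14.3 in shARF and 9.94, 9.56 and 11.7 in Both. It was not called in MLN against Ctrl (−0.035 ± 0.13), rose in shARF against Ctrl (0.53 ± 0.062; limma adjusted p = 0.00227) and fell in Both against shARF (−0.37 ± 0.094; limma adjusted p = 0.0147). The fall was not called without shARF replicate 5, without Both replicate 2 or under median-of-ratios scaling, with adjusted p up to 0.0567.

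FBXO5 (EMI1) and FBXO43 (EMI2) are inhibitors of another ubiquitin ligase, the anaphase-promoting complex, in mitotic and meiotic cells respectively. FBXO5 read 14.3, 15.1 and 15.1 TPM in Ctrl and 17.98, 19.9 and 18.4 in MLN, and 22.5, 19.5 and 21.2 in shARF and 15.4, 18.03 and 16.8 in Both. It rose after the drug in PC3 (0.34 ± 0.061) and was higher in shARF than in Ctrl (0.50 ± 0.063). Yet it fell after the drug in the hairpin line (−0.33 ± 0.083), a fall not called without shARF replicate 1 (limma adjusted p = 0.0533). The 2 drug responses differed by −0.67 ± 0.11 (limma interaction, adjusted p = 0.000824). FBXO43, at a much lower level, read 1.54, 1.14 and 1.65 TPM in Ctrl and 3.18, 3.20 and 3.09 in MLN, and 3.03, 3.23 and 3.38 in shARF and 3.83, 4.73 and 3.62 in Both. Its Ctrl libraries lay below all others, and it was called higher in MLN (1.09 ± 0.17) and in shARF (1.11 ± 0.17) than in Ctrl. The further rise in Both over shARF was not called (0.32 ± 0.13).

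The phase lists moved beside these members. All 18 G1/S genes rose in MLN against Ctrl, with a median log2 difference of 1.27 beside 0.05 for all genes. In shARF against Ctrl 17 of 18 rose, with a median of 1.18 beside 0. In Both against shARF, 10 rose and 8 fell (median 0.46, beside −0.04). Their interaction was called downward for 17 of 18 and upward for none (median −1.04, beside −0.09), against 17.1% and 11.2% of all genes. Their summed level was 893 to 984 TPM in Ctrl and 2316 to 2665 in MLN, and 2000 to 2118 in shARF and 2681 to 2730 in Both. Of the 21 G2/M genes, 5 rose and 11 fell in MLN against Ctrl, 19 rose in shARF against Ctrl, and 3 rose and 15 fell in Both against shARF. Their summed level was 1690 to 1861 TPM in Ctrl and 1569 to 1782 in MLN, and 2366 to 2403 in shARF and 1582 to 1681 in Both. The all-gene shares rising and falling were 32.2% and 29.4% in MLN against Ctrl, 21.0% and 20.4% in shARF against Ctrl, and 28.3% and 32.8% in Both against shARF. The part of this shift of phase markers in the levels of SKP2, CCNF, FBXO5 and FBXO43 was not tested.

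BTRC and FBXW11 encode the paralogous β-TrCP receptors of β-catenin and of the NF-κB inhibitor, and FBXW11 was the more abundant in every library. BTRC read 26.7, 24.7 and 26.2 TPM in Ctrl and 19.1, 20.3 and 21.03 in MLN, and 27.04, 25.2 and 26.8 in shARF and 24.1, 24.2 and 20.6 in Both. FBXW11 read 64.6, 60.8 and 59.9 TPM in Ctrl and 43.3, 47.9 and 44.9 in MLN, and 51.3, 52.6 and 53.02 in shARF and 48.01, 50.98 and 45.04 in Both. Both genes fell after the drug in PC3 (−0.36 ± 0.059 and −0.45 ± 0.056) and neither was called in the hairpin line (−0.20 ± 0.075 and −0.13 ± 0.053). The difference between the lines was called for FBXW11 (0.32 ± 0.084) and not for BTRC (0.16 ± 0.10). FBXW11 also fell in shARF against Ctrl (−0.24 ± 0.035), where BTRC was not called (0.027 ± 0.045). How reads that fit both copies were divided is not given in the sources used here, so levels of such paralogs carry that uncertainty.

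FBXW7 gave no call in any of the 5 tests. Its log2 differences were 0.10 ± 0.12 after the drug in PC3, 0.0036 ± 0.093 after it in the hairpin line and 0.12 ± 0.12 in shARF against Ctrl. The other members without any call were FBXL13, FBXL19, FBXO24, FBXO27 and FBXW9. FBXO31, which can target cyclin D1, was called in the hairpin line (−0.72 ± 0.07), from 22.3, 22.7 and 25.8 to 13.96, 14.05 and 14.8 TPM, and not in PC3 (−0.25 ± 0.11). FBXO4, another receptor reported for cyclin D1, fell in both lines (limma adjusted p = 0.000813 and 0.00311), from 7.98, 9.68 and 8.87 to 4.65, 4.74 and 3.75 TPM in PC3 and from 5.43, 6.65 and 6.90 to 3.73, 4.13 and 3.88 TPM in the hairpin line.

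**Figure D4:**
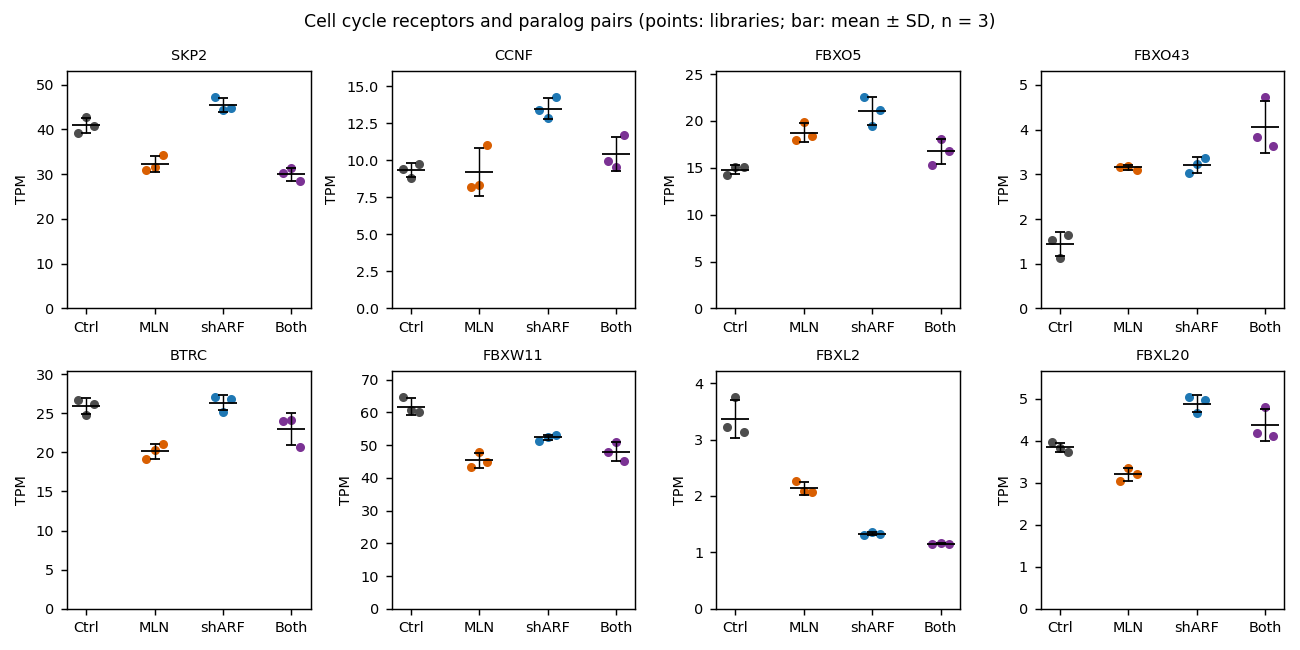
TPM in each of the 12 libraries for SKP2, CCNF, FBXO5 and FBXO43 (top row) and for the paralog pairs BTRC with FBXW11 and FBXL2 with FBXL20 (bottom row); points are libraries, bars the mean ± SD of 3, and each axis starts at 0. FBXO43 is low in Ctrl only, and FBXL2 is low in shARF and Both, where FBXL20 is not.

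FBXO2 and FBXO6 are receptors that bind N-linked sugars on glycoproteins through an FBA domain, a domain that FBXO44 shares, and these 3 genes lie side by side on chromosome 1 of GRCh38 (FBXO2, FBXO44 and FBXO6 in this order; GENCODE positions 11637018-11655785, 11654375-11663327 and 11664200-11674354). FBXO2 is on the minus strand and its exons overlap those of FBXO44 on the plus strand, and FBXO6 starts 873 bases beyond FBXO44 and overlaps MAD2L2 exons on the opposite strand. The strandedness of the libraries is not given in the sources used here, so reads of these overlapping genes may not be told apart. The same limit holds elsewhere. Of the 60 tested members, exons of 25 overlapped a gene on the opposite strand and exons of 8 a gene on the same strand. FBXL6, SKP2, CCNF, FBXO5, FBXW8 and FBXO16 are among them. In MLN against Ctrl, FBXO2, FBXO44 and FBXO6 all rose, and FBXO27, the fourth tested gene of the list, was not called (−0.20 ± 0.10).

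FBXO2 read 2.56, 1.84 and 2.45 TPM in Ctrl and 5.75, 7.53 and 5.65 in MLN, and 2.21, 1.82 and 2.14 in shARF and 4.30, 4.98 and 4.40 in Both, a rise in both lines (1.43 ± 0.18 and 1.11 ± 0.12). FBXO6 read 25.3, 19.8 and 25.2 TPM in Ctrl and 33.4, 40.8 and 30.7 in MLN, and 26.2, 27.4 and 31.7 in shARF and 23.2, 26.2 and 29.4 in Both. It rose in PC3 (0.57 ± 0.14; limma adjusted p = 0.0136) and was not called in the hairpin line (−0.11 ± 0.11), and these responses differed (−0.69 ± 0.19; limma interaction, adjusted p = 0.0152). FBXO44 read 27.1, 19.8 and 23.4 TPM in Ctrl and 28.4, 29.3 and 30.9 in MLN, and 22.3, 18.9 and 21.5 in shARF and 16.2, 17.8 and 17.8 in Both. Its rise in PC3 (0.34 ± 0.12) was lost without Ctrl replicate 2 or 3 or any 1 MLN library, with adjusted p up to 0.266, and its fall in the hairpin line (−0.27 ± 0.08) without shARF replicate 1 or 5 or any 1 Both library, with adjusted p up to 0.0900. The difference between its responses was −0.61 ± 0.15 (limma interaction, adjusted p = 0.00832). The neighbours thus shared a direction in PC3 and did not share it in the hairpin line.

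FBXL5, which senses iron and removes the iron regulatory protein IREB2 when iron is plentiful, read 33.9, 35.98 and 33.5 TPM in Ctrl and 51.2, 52.1 and 50.4 in MLN, and 42.1, 44.1 and 37.97 in shARF and 78.5, 79.3 and 70.2 in Both. The groups did not overlap, with Both the highest, and the rise after the drug was 0.57 ± 0.046 in PC3 and 0.88 ± 0.076 in the hairpin line (limma adjusted p = 0.000118 and 0.000171). The IREB2 transcript was called in neither drug comparison (−0.05 ± 0.052 and −0.13 ± 0.06).

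FBXO7, a receptor gene mutated in a form of early parkinsonism, fell after the drug from 29.96, 25.98 and 29.1 to 16.2, 20.9 and 21.5 TPM in PC3 (−0.54 ± 0.12) and from 32.3, 34.2 and 32.8 to 27.3, 27.98 and 23.8 TPM in the hairpin line (−0.33 ± 0.071). MLN replicate 1 was the lowest of all, and in each line every treated library lay below every untreated one.

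Whether the hairpin line answered the drug as PC3 did was tested as an interaction, the log2 difference of Both against shARF minus that of MLN against Ctrl, fitted to all 12 libraries. A positive value means a higher response in the hairpin line. It was called upward for 8 members and downward for 12, against 11.2% and 17.1% of all genes, with a median of −0.07 for members and −0.09 for all genes. The upward count fell to between 3 and 5 without Ctrl replicate 2 or 3, MLN replicate 2 or 5, any 1 shARF library, or Both replicate 2 or 3. Under median-of-ratios scaling the split was 11 upward and 10 downward.

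The largest interaction among members of at least 1 TPM was that of FBXL16, a receptor-like gene that read 17.6, 13.3 and 13.2 TPM in Ctrl and 7.62, 9.46 and 7.30 in MLN, and 19.8, 19.4 and 21.96 in shARF and 5.71, 4.53 and 5.42 in Both. It started higher and ended lower in the hairpin line, so the drop grew from −0.84 ± 0.15 to −1.95 ± 0.10 on the log2 scale (interaction −1.11 ± 0.19; limma adjusted p = 0.00115). FBXL17 differed in the other direction, since the drop was larger in PC3 (interaction 1.01 ± 0.14; limma adjusted p = 0.000203). FBXO43 (−0.77 ± 0.21), FBXO46 (−0.48 ± 0.12), FBXO6 and FBXO5 had smaller responses in the hairpin line or opposite ones. For FBXO31 the fall was greater in the hairpin line (−0.47 ± 0.14), a call lost without Ctrl replicate 2, MLN replicate 2 or 5, or shARF replicate 5, with adjusted p up to 0.218. The interaction of SKP2 (−0.25 ± 0.086) was lost under 12 of 19 alternatives, many of them with a single library left out, with adjusted p up to 0.305.

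The difference between the lines without the drug was read from shARF against Ctrl. There, 13 of the 66 rose and 12 fell, against 21.0% and 20.4% of all genes, with a median of −0.0040 for the tested members and 0 for all genes. The number that rose was 8 without Ctrl replicate 3 or without shARF replicate 1. FBXL2, whose product is itself lipid-anchored, had the largest fall, from 3.22, 3.75 and 3.13 TPM in Ctrl to 1.31, 1.36 and 1.33 in shARF (−1.27 ± 0.11; limma adjusted p = 0.000872), and read 2.27, 2.08 and 2.07 TPM in MLN and 1.15, 1.17 and 1.14 in Both. The libraries of the 2 lines did not overlap with or without the drug. Its paralog FBXL20 went the other way, from 3.96, 3.82 and 3.74 to 5.03, 4.66 and 4.96 TPM (0.34 ± 0.068; limma adjusted p = 0.0139), a call lost without shARF replicate 1. The log2 ratio of FBXL2 to FBXL20 was −0.19 ± 0.14 in Ctrl and −0.56 ± 0.14 in MLN, and −1.80 ± 0.08 in shARF and −1.83 ± 0.11 in Both (mean ± SD, n = 3).

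FBXO16 also fell in shARF against Ctrl, from 10.4, 9.83 and 10.5 to 5.35, 4.85 and 5.43 TPM (−0.96 ± 0.066), and FBXO33 from 30.4, 27.5 and 27.6 to 20.2, 19.4 and 20.9 TPM (−0.49 ± 0.053). FBXO33 rose after the drug in both lines, so that Both, at 39.02, 37.6 and 32.7 TPM, stood at the level of MLN, at 37.4, 40.1 and 40.04 TPM. FBXL17 (−0.48 ± 0.072), FBXO48 (−0.88 ± 0.22) and FBXO4 (−0.48 ± 0.12) were lower in shARF, and FBXW4 (0.39 ± 0.078), FBXL16 (0.48 ± 0.13) and FBXO46 (0.41 ± 0.06) were higher. Of these, FBXL16 was not called without any 1 of Ctrl replicates 2 and 3 and the shARF libraries (adjusted p up to 0.232 over its alternatives), FBXO48 without Ctrl replicate 2 or 3 or shARF replicate 3 (up to 0.203), FBXO4 without Ctrl replicate 2 or 3 or shARF replicate 1 or 3 (up to 0.0952), and FBXW4 without Ctrl replicate 3 (up to 0.176). On the cell cycle list, the 4 members that rose were SKP2, CCNF, FBXO5 and FBXO43, the call of SKP2 being lost under 10 of 14 alternatives.

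Under the drug, the lines were compared as Both against MLN, where 7 members were higher and 11 lower in Both, against 11.8% and 20.6% of all genes, with a median of −0.07 for members and −0.08 for all genes. The count was 3 and 7 without MLN replicate 2, 2 and 6 without Both replicate 2, and 16 higher and 10 lower under median-of-ratios scaling. FBXL5 (0.57 ± 0.06) and FBXO22 (0.45 ± 0.068) were higher in Both, with 14.1, 15.01 and 13.8 TPM in MLN and 20.4, 20.1 and 18.3 in Both for FBXO22. FBXO44 (−0.77 ± 0.063), FBXL2 (−0.83 ± 0.12), FBXO16 (−0.58 ± 0.092) and FBXO31 (−0.44 ± 0.078) were lower. Between shARF against Ctrl and Both against MLN, which share no library, 3 members were higher in both and 4 lower in both, FBXL17 was lower without the drug and higher with it, FBXL16 was higher without it and lower with it, and 26 tested members were called in neither. Such joint calls were not counted over all genes either. Under the drug, FBXL17 lost its call without MLN replicate 2 or Both replicate 2 (adjusted p up to 0.0663) and FBXL16 without MLN replicate 2 or Both replicate 3 or 4 (up to 0.0584).

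The members were also counted by their substrate-binding domain. SKP2 was counted with the FBXL genes, CCNF with the FBXO genes and BTRC with the FBXW genes. Of the 8 tested FBXW genes, 1 rose and 5 fell in MLN against Ctrl, with a median log2 difference of −0.30. Of the 17 tested FBXL genes, 6 rose and 6 fell (median −0.06), and of the 35 tested FBXO genes, 16 rose and 12 fell (median −0.07), against 32.2% rising, 29.4% falling and a median of 0.05 for all genes. In Both against shARF the same classes had 0 rising and 2 falling, 4 rising and 6 falling, and 12 rising and 15 falling, with medians of −0.16, −0.16 and −0.11, against 28.3%, 32.8% and −0.04 for all genes. No test of a difference between the classes was made.

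Gene length was looked at after the values were seen. The GENCODE span from the first to the last base of the gene was known for all 60 tested members. Of the 16 members under 20 kb, 11 rose and 3 fell in MLN against Ctrl, of the 23 from 20 to 60 kb, 10 rose and 8 fell, and of the 21 of 60 kb or more, 2 rose and 12 fell. Among all tested genes of any span, 32.2% rose and 29.4% fell. FBXL17, which had the deepest fall, is the longest tested member (523064 bases), and FBXO42 (105641 bases) and FBXL5 (77299 bases) are the 2 long genes that rose. Across the members, Spearman's rho between span and log2 difference was −0.45 in MLN against Ctrl and Pearson's r with the log10 span was −0.43, and in Both against shARF they were −0.18 and −0.22 (n = 60 genes measured in the same libraries). A span was known for 79.3% of the 19932 tested genes, under the 80% set for such a check, so the same reading over all genes is void and nothing particular to F-box genes is drawn from it.

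The other parts of the ligase were read from a list of 20 genes for the SCF core, its E2 enzymes and the NEDD8 pathway. In MLN against Ctrl 9 rose and 7 fell (median 0.04, beside 0.05 for all genes), in Both against shARF 4 rose and 8 fell (median 0.01), and in shARF against Ctrl 12 rose and 2 fell (median 0.23, beside 0). The all-gene shares rising and falling were 32.2% and 29.4%, 28.3% and 32.8%, and 21.0% and 20.4% in this order. CUL1, the cullin of the SCF ligase, fell in both lines, from 87.5, 88.8 and 90.5 to 56.2, 59.7 and 64.99 TPM in PC3 (−0.56 ± 0.061) and from 93.9, 90.9 and 92.1 to 63.4, 70.2 and 61.7 TPM in the hairpin line (−0.51 ± 0.055). CAND1, which exchanges receptors on CUL1, fell as well (−0.41 ± 0.056 and −0.24 ± 0.079). UBE2M, the enzyme that passes NEDD8 to cullins, rose in both lines (0.61 ± 0.083 and 0.44 ± 0.081), and RBX1 rose in PC3 (0.48 ± 0.078) and was not called in the hairpin line (0.014 ± 0.10).

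Of 28 transcripts whose proteins are known substrates, 27 were tested, and 17 rose and 6 fell in MLN against Ctrl (median 0.65, beside 0.05 for all genes), while 16 rose and 6 fell in Both against shARF (median 0.46, beside −0.04). Among all genes, 32.2% rose and 29.4% fell in the first comparison, and 28.3% and 32.8% in the second. CDT1, a replication licensing factor and a substrate of SKP2, rose from 18.97, 17.4 and 17.3 to 84.4, 95.1 and 108 TPM in PC3 (2.41 ± 0.10), and by less in the hairpin line (0.86 ± 0.13; interaction −1.55 ± 0.17). SLBP, the histone mRNA binder that cyclin F removes, rose from 109, 109.6 and 109 to 230.0, 228 and 250.3 TPM (1.11 ± 0.05). Transcripts on the list that fell included CCND1 (cyclin D1; −2.92 ± 0.069 in PC3 and −2.98 ± 0.042 in the hairpin line), NFKBIA (the NF-κB inhibitor; −2.71 ± 0.085 and −0.76 ± 0.071) and MYC (−2.27 ± 0.082 and −2.17 ± 0.053). These genes were picked after their values were seen. CDC6, CDT1, SLBP, RRM2 and CCNE1 also stand on the G1/S list, so these counts are not separate from those of that list. FBXO5, also known as a substrate, was left out of this list because it is a member. Of 8 genes that hold an F-box under another symbol, 5 were tested under these symbols, and 2 rose (LMO7 and TSPAN17) and 1 fell in MLN against Ctrl. Another of the 8, FBH1, carries the symbol FBXO18 in these data and was tested as a member. It fell in both lines (−0.50 ± 0.084 in PC3 and −0.46 ± 0.055 in the hairpin line). KDM2B, a histone demethylase with an F-box, was called in the hairpin line (−0.55 ± 0.061) and not in PC3 (−0.024 ± 0.11).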

How the data were processed

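RNA-seq was measured in 12 libraries, 3 for each of the conditions Ctrl, MLN, shARF and Both. Reads were trimmed and mapped to hg38 in CLC Genomics Workbench and quantified on an Ensembl annotation by the authors, who deposited TPM per gene, a unit scaled to 1000000 per library that keeps no depth. Values were taken to log2(TPM + 0.1), and 19932 genes, those that averaged 0.1 TPM or more, were kept. Each pairwise comparison was fitted to its 6 libraries, and the interaction to 12, with limma 3.58.1 in R 4.3.3 (lmFit, eBayes with trend, two-sided, Benjamini-Hochberg over all genes tested), with calls made where the adjusted p was under 0.05. The fits were tested on simulated data. The members and gene lists were chosen with earlier results of these data known. Genes named throughout are 15 with well known roles and every member of at least 1 TPM called with a log2 difference of at least 1. Others are named from a list, or were chosen after their values were seen. Alternatives were 1 or 0.01 as pseudocount, a filter at 1 TPM or none, eBayes without its trend, median-of-ratios scaling, a fit of all 12 libraries, each library left out, and a block for the replicate number. Gene positions are from GENCODE v44, another release than that of the authors. Results of 1 member and 1 marker gene are not reported here; the member stays in the fits and counts.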

Additional observations from a re-analysis of the deposited data

Results flagged for a closer look

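The drug response differed between the lines by the interaction test (Both against shARF minus MLN against Ctrl, log2 scale, limma, 12 libraries) for 20 members, of which 19 are given. Among all tested genes, 11.2% were called upward and 17.1% downward. The response was lower in the hairpin line for FBXL16 (−1.11), FBXO43 (−0.77), FBXL15 (−0.71), FBXO6 (−0.69), FBXO5 (−0.67), FBXO44 (−0.61), FBXW5 (−0.49), FBXO46 (−0.48), FBXO31 (−0.47) and SKP2 (−0.25). It was higher for FBXL17 (1.01), FBXO33 (0.39), FBXO16 (0.38), FBXO22 (0.35), FBXL4 (0.33), FBXW11 (0.32) and FBXL5 (0.30). FBXO15 (1.29) and FBXO40 (−2.06) also differed, at levels under 1 TPM in every library. FBXO40 passed the filter through its MLN libraries alone, so its call supports nothing. Over the alternatives, among them single libraries left out, the interaction call was lost in 12 of 19 for SKP2, 10 of 19 for FBXL4 and for FBXO16, 8 of 19 for FBXL5, 5 of 19 for FBXO31, 4 of 19 for FBXO22 and 10 of 18 for FBXO15, with adjusted p up to 0.305, 0.192, 0.152, 0.125, 0.218, 0.118 and 0.161. SKP2, FBXL4, FBXO16, FBXO22, FBXL5 and FBXO15 each lost it without Both replicate 2, among others. The remaining 12 given here lost it under the replicate block or under none.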

How the results depend on the processing

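The samples share only replicate numbers, and it is not stated whether same-numbered libraries were prepared together. Deviations of same-numbered libraries correlated with r between −0.046 and 0.022. That shows no shared deviation by number, but it cannot exclude a pairing. With the replicate number as a block, 9 members rose and 7 fell in MLN against Ctrl, and 3 and 2 were called in the interaction. In shARF against Ctrl the block left 0 and 0 called by limma, with 10 higher and 11 lower at an unadjusted p below 0.05, and no gene of the table was called (smallest adjusted p 0.0607). For a pair of conditions the block used up most of the 6 libraries, which left little to measure the spread. Fewer calls were thus likely from the start, and a loss under the block alone says little about a call. No paired analysis was possible for Both against shARF and Both against MLN because they share only 1 number. Of 148 calls of members, 57 were kept under all alternatives run for them, 91 were lost under at least 1, and 0 changed direction. Many of the lost calls were lost under the block alone. In Both against MLN, the 7 higher members became 16 under median-of-ratios scaling and 11 with 12 libraries in one fit. Over all genes the number called higher went from 2352 to 3663 under the scaling, and it was not counted for the one fit. That scaling moved the median of all genes by at most 0.093. It gave 19 members higher and 19 lower in Both against shARF, beside 6407 and 5933 of all genes. With each library left out in turn, members called higher and lower numbered 20 to 23 and 22 to 23 in MLN against Ctrl, 13 to 15 and 18 to 24 in Both against shARF, 8 to 13 and 8 to 11 in shARF against Ctrl, 2 to 9 and 6 to 12 in Both against MLN, and 3 to 9 and 9 to 13 in the interaction. A condition left with 2 libraries was assumed to vary like the others. TPM gives no depth, so the counting error of low members is unknown.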
